A study of Bos indicus with 5 samples.

Results

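Progesterone and glucocorticoid reach the oviduct from the ovary and the adrenal gland, and the genes described here encode proteins that receive or tune their signal in the ampulla, the wide segment of the oviduct where fertilization takes place. The rule named 9 genes by symbol, and 8 of them were found among the 24616 genes of the ampulla table. These were PGR, PGRMC1, PGRMC2, PAQR5, PAQR7, PAQR8, FKBP4 and FKBP5. NR3C1, the nuclear glucocorticoid receptor, had no row under that symbol. A row listed as GR-A is given below for comparison, but nothing in the tables used here ties it to NR3C1, and it was not counted. No gene of an androgen receptor was among the 9.

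Ampulla tissue was taken on day 4 after induced ovulation from multiparous Nelore (Bos indicus) cows, with 1 library per cow, 2 in LF/LCL and 3 in SF/SCL, where the letters stand for a large or small ovulatory follicle and the large or small corpus luteum that followed it. All cows were pre-synchronized with a prostaglandin F2α analog (0.5 mg of sodium cloprostenol) and a GnRH agonist (1 µg of buserelin acetate) 7 days apart, and then carried an intravaginal device with 1 g of progesterone and received 2 mg of estradiol benzoate. Only LF/LCL cows had an additional prostaglandin injection when the device was placed, and their device came out 42 h before the ovulatory GnRH injection, against 30 h in SF/SCL. All cows had prostaglandin at device removal and again 6 h later. Ages were not given. The cows sequenced were those ranked at the far end of their group for follicle, corpus luteum and steroid measures, so they stand for extremes and not for the average of each group. The pieces held the full wall, with epithelium, stroma and muscle, and in such tissue fewer cells of a type and less RNA per cell cannot be told apart.

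PGR is a nuclear receptor that, once bound by progesterone, leaves a chaperone complex built around HSP90 and acts on transcription. FKBP4 and FKBP5 are immunophilins that join the same complex and compete for a place in it. FKBP4 favours hormone binding and receptor activity, whereas FKBP5 lowers hormone affinity, and FKBP5 is itself a classic transcriptional target of glucocorticoid and progestin. The PAQR proteins bind progestins at the cell membrane and signal through G proteins, and PGRMC1 and PGRMC2 are heme-binding membrane proteins linked to progesterone action and sterol metabolism. In the oviduct, progesterone is known to slow ciliary beating and to modulate muscle tone and secretion after ovulation.

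The libraries held from 13418278 to 19592174 reads assigned to genes. Values are normalized reads, that is, reads of a gene over 1 size factor for each library. The tissue markers were present, with OVGP1, the oviduct glycoprotein of secretory cells, between 117179 and 147247 normalized reads, and FOXJ1, the master factor of motile cilia, between 8481 and 12698. Adipocyte markers were near 0, with a summed level of at most 12.9 over the 3 that matched. The smooth muscle and ciliated marker lists, and some secretory and immune markers, differed between the groups and are given beside the results below. With limma, 0 of 15815 genes tested had an adjusted p under 0.05 (0%), and 1819 had an unadjusted p under 0.05. The smallest adjusted p was 0.178. None of the results below therefore passed the correction with limma.

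Of the 8 genes, FKBP5 and PGRMC1 were higher in both LF/LCL libraries than in every SF/SCL library, and FKBP4 and PAQR8 were lower in both. PGR, PGRMC2, PAQR7 and PAQR5 overlapped between the groups. The count of 4 of 8 without overlap is to be read against all genes tested, of which 30.1% did not overlap, 15% higher and 15.1% lower in LF/LCL. An unadjusted p under 0.05 was found for 3 of the 8 (limma), FKBP5 higher and PAQR8 and FKBP4 lower, against 11.5% of all genes. With an adjusted p the count was 0 of 8 by limma and by the edgeR quasi-likelihood test, where 3 had an unadjusted p under 0.05, and 1 of 8, PAQR8, by DESeq2, which called 2.91% of all genes. These p-values rest on the spread between the 5 cows, which limma, edgeR and DESeq2 each moderate for a gene with that of the other genes.

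**Figure D1:**
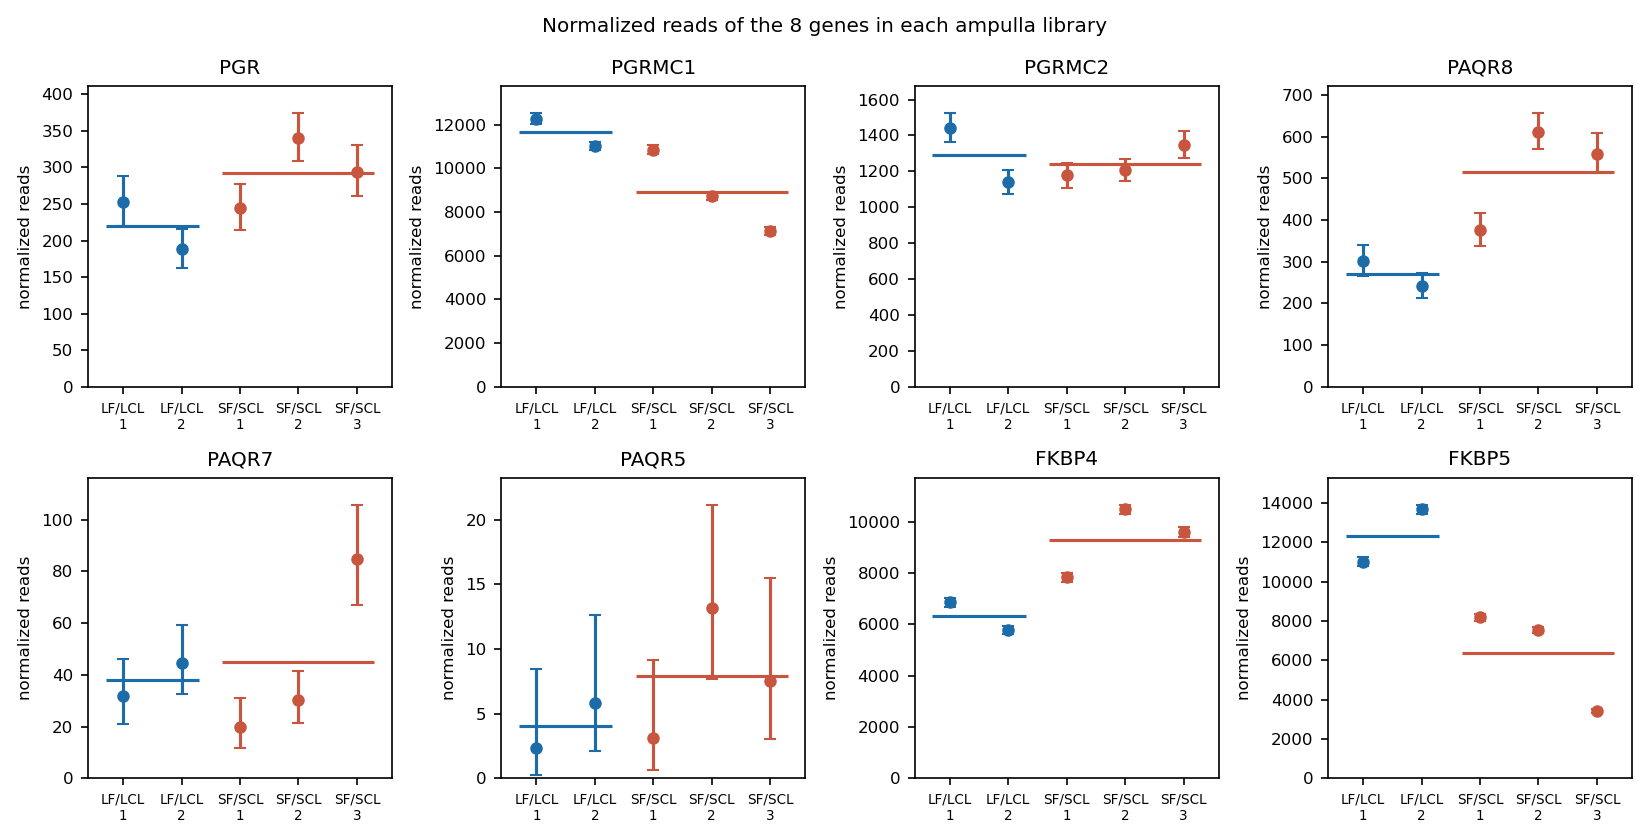
Normalized reads (vertical axis, linear from 0, own scale per gene) of the 8 genes in the 2 LF/LCL libraries (blue) and the 3 SF/SCL libraries (red). Points are libraries, bars are exact Poisson 95% intervals that cover counting error only, and horizontal lines are group means. The LF/LCL points lie above all SF/SCL points for FKBP5 and PGRMC1 and below them for FKBP4 and PAQR8.

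FKBP5 (ENSBTAG00000047502), the immunophilin that lowers hormone affinity of steroid receptors, had 11006 and 13682 normalized reads in LF/LCL replicates 1 and 2. In SF/SCL it had 8188, 7537 and 3428 in replicates 1, 2 and 3. Both LF/LCL libraries were above every SF/SCL library, and SF/SCL replicate 3 was far below the other two of its group. The means were 12344 ± 1892 (SD, n = 2) and 6384 ± 2581 (SD, n = 3). On the log2(value + 1) scale the difference was 1.04 ± 0.39 (SE), which is 2.06-fold with a 95% interval from 1.05 to 4.04, an unadjusted p of 0.0396 and an adjusted p of 0.414 with limma. Without SF/SCL replicate 3 the difference was 0.64 with an unadjusted p of 0.00799, and without LF/LCL replicate 1 or 2 it was 1.20 or 0.89, with unadjusted p of 0.0701 and 0.15.

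FKBP4 (ENSBTAG00000007605), the immunophilin that favours receptor activity, went the other way. It had 6861 and 5791 normalized reads in LF/LCL, against 7847, 10487 and 9602 in SF/SCL. The highest LF/LCL library was below the lowest SF/SCL library. The means were 6326 ± 756 (SD, n = 2) and 9312 ± 1344 (SD, n = 3). The log2 difference was -0.55 ± 0.16 (SE), so that SF/SCL was 1.47-fold higher, with an unadjusted p of 0.0125 and an adjusted p of 0.323 by limma and 0.0755 by DESeq2. Without LF/LCL replicate 2 the limma difference was -0.43 with an unadjusted p of 0.0802.

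The ratio of 2 genes within a library does not depend on the size factor. The ratio of FKBP5 to FKBP4 in normalized reads was 1.60 and 2.36 in LF/LCL, against 1.04, 0.719 and 0.357 in SF/SCL. These ratios are not per length, so only their change between libraries can be read. Both LF/LCL ratios were above every SF/SCL ratio, which follows from the values of the 2 genes given above and adds no support to them. The mean log2 ratio of LF/LCL was 0.96 ± 0.39 (SD, n = 2) and that of SF/SCL was -0.63 ± 0.79 (SD, n = 3). This is a difference of 1.59, or 3.02-fold, with a two-sided exact permutation p of 0.2 and an adjusted p of 0.3 over the 3 ratios computed. With 2 libraries against 3 the exact test allows no p below 0.1, so it cannot reach 0.05.

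The other 2 ratios overlapped between the groups. PGRMC1 over PGRMC2 was 8.53 and 9.68 in LF/LCL, against 9.23, 7.22 and 5.31 in SF/SCL, with a two-sided exact permutation p of 0.3. PAQR8 over PAQR7 was 9.52 and 5.43 in LF/LCL, against 19.1, 20.2 and 6.59 in SF/SCL, with an exact permutation p of 0.3. The low PAQR8 ratio of SF/SCL replicate 3 came with the highest PAQR7 value of all libraries, described below.

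**Figure D2:**
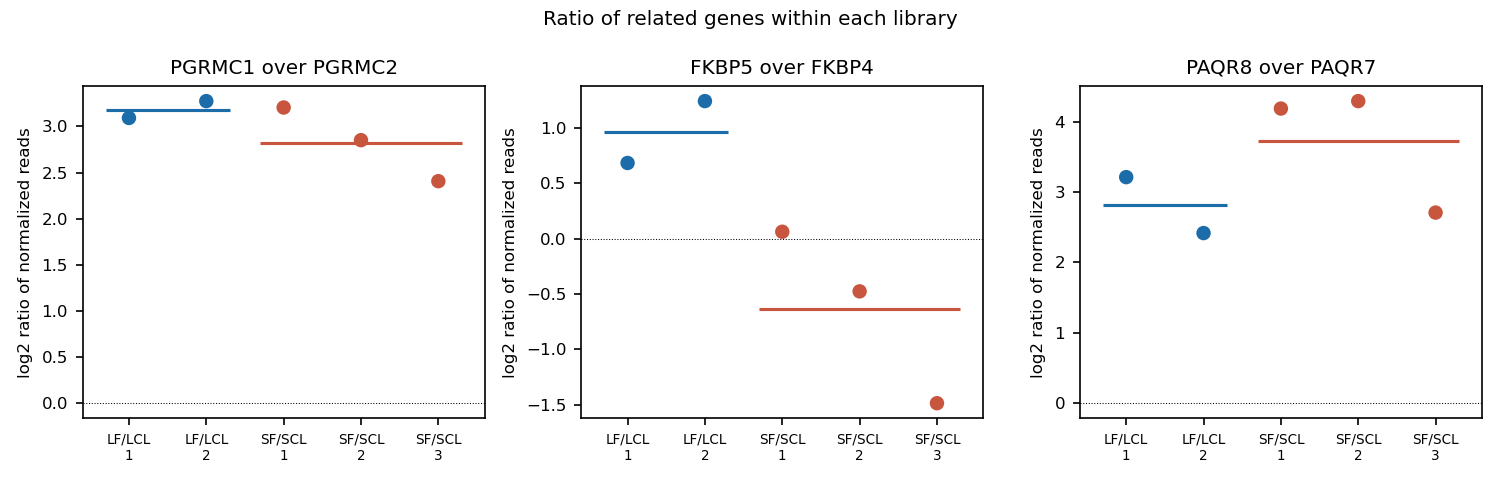
Log2 ratio of normalized reads (vertical axis) of 3 pairs of related genes in each library, LF/LCL in blue and SF/SCL in red, with group means as lines. The FKBP5 to FKBP4 ratio is above 0.6 on the log2 scale in both LF/LCL libraries and below 0.1 in the 3 SF/SCL libraries, while the groups overlap for the other 2 pairs.

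PGR (ENSBTAG00000024648), the nuclear progesterone receptor, had 252 and 188 normalized reads in LF/LCL, against 244, 340 and 294 in SF/SCL. The groups overlapped, since LF/LCL replicate 1 was just above SF/SCL replicate 1. The means were 220 ± 45.5 (SD, n = 2) and 293 ± 48.0 (SD, n = 3). The log2 difference was -0.41 ± 0.22 (SE), with a 95% interval from -0.95 to 0.13 and a limma adjusted p of 0.537. This interval includes no difference and also a level in LF/LCL of 0.516 times that in SF/SCL. Leaving out 1 library at a time moved the difference between -0.63 and -0.20, always lower in LF/LCL. The table gives 1 value per gene, so the PGR isoforms were not separated here.

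PGRMC1 (ENSBTAG00000019552) had 12286 and 11024 normalized reads in LF/LCL, against 10863, 8721 and 7140 in SF/SCL. There was no overlap, but LF/LCL replicate 2 and SF/SCL replicate 1 were close neighbours, with counting intervals of 10822 to 11228 and 10655 to 11073 that shared a range. The log2 difference was 0.41 ± 0.19 (SE), which is 1.33-fold with a 95% interval from 0.966 to 1.82 and a limma adjusted p of 0.477. Without SF/SCL replicate 1 it was 0.56 with an unadjusted p of 0.0157, and without SF/SCL replicate 3 it was 0.26 with an unadjusted p of 0.16. Without LF/LCL replicate 1 or 2 it was 0.33 or 0.48, with unadjusted p of 0.244 and 0.109.

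PGRMC2 (ENSBTAG00000010843), the close relative of PGRMC1, had 1440 and 1138 normalized reads in LF/LCL, against 1177, 1208 and 1346 in SF/SCL. All SF/SCL libraries lay between the 2 LF/LCL libraries. The log2 difference was 0.04 ± 0.14 (SE), with a 95% interval from -0.29 to 0.38, the narrowest of the 8 genes. Its sign turned without LF/LCL replicate 1, to -0.125.

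PAQR8 (ENSBTAG00000025494), which encodes a membrane progestin receptor (mPR beta), had 301 and 242 normalized reads in LF/LCL. In SF/SCL it had 376, 612 and 559. There was no overlap, and SF/SCL replicate 1 was the nearest to LF/LCL. The means were 272 ± 42.0 (SD, n = 2) and 516 ± 123 (SD, n = 3). The log2 difference was -0.90 ± 0.24 (SE), so that SF/SCL was 1.87-fold higher, with an unadjusted p of 0.00984 and an adjusted p of 0.306 by limma. Among the genes tested, 508 (3.21%) had a smaller p. DESeq2 gave PAQR8 an adjusted p of 0.0461 and the edgeR quasi-likelihood test 0.312, so its call rests on the tool. Without LF/LCL replicate 2 the limma difference was -0.74 with an unadjusted p of 0.0635.

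PAQR7 (ENSBTAG00000021787), the gene of mPR alpha, was scarce and scattered. It had 31.7 and 44.5 normalized reads in LF/LCL, from 27 and 46 reads, and 19.8, 30.3 and 84.8 in SF/SCL, from 19, 39 and 79 reads. SF/SCL held both the lowest and the highest library, and the counting interval of SF/SCL replicate 3, 67.1 to 106, lay above those of all other libraries. The log2 difference of 0.01 ± 0.66 (SE) had a 95% interval from -1.58 to 1.61, and its sign turned under several of the alternatives.

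PAQR5 (ENSBTAG00000020352), the gene of mPR gamma, rested on 35 reads in all. The LF/LCL libraries held 2 and 6 reads and the SF/SCL libraries 3, 17 and 7, or 2.35 and 5.81 against 3.12, 13.2 and 7.51 normalized reads. The counting intervals of the lowest LF/LCL library, 0.284 to 8.47, and of the highest SF/SCL library, 7.70 to 21.2, overlapped. The groups overlapped, and the log2 difference of -0.73 ± 0.83 (SE) had a 95% interval from -2.74 to 1.28.

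The row listed as GR-A (ENSBTAG00000019472) had 855 and 693 normalized reads in LF/LCL, against 902, 731 and 966 in SF/SCL. The groups overlapped, and the log2 difference was -0.16 ± 0.17 (SE) with a limma adjusted p of 0.769.

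**Figure D3:**
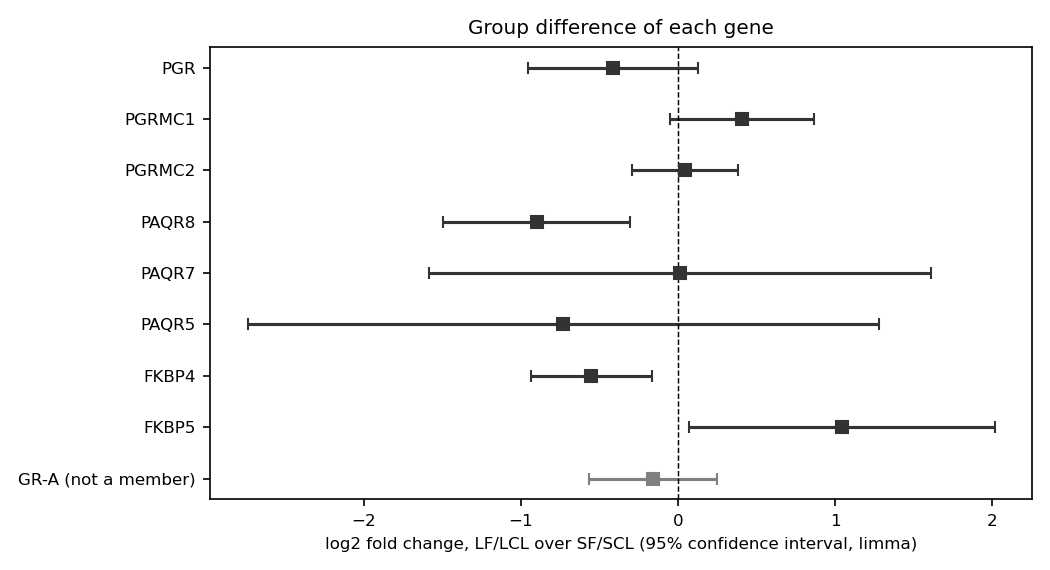
Log2 fold change of LF/LCL over SF/SCL (horizontal axis) for the 8 genes and for the GR-A row (grey), with limma estimates as squares and 95% confidence intervals as bars. Unadjusted intervals of PAQR8, FKBP4 and FKBP5 leave out 0, and those of PAQR5 and PAQR7 are the widest.

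The libraries ranked alike for some of these genes. PAQR8 and FKBP4 both ran from SF/SCL replicate 2 at the top, through SF/SCL replicates 3 and 1 and LF/LCL replicate 1, to LF/LCL replicate 2. PGR had the same order but for LF/LCL replicate 1 and SF/SCL replicate 1, which changed places. FKBP5 and PGRMC1 both had SF/SCL replicate 3 at the bottom, with SF/SCL replicates 2 and 1 next, and the LF/LCL libraries at the top. With 5 libraries these orders are a description.

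Markers of other cell types moved with the groups as well. The 12 smooth muscle markers tested were all higher in LF/LCL, 10 without overlap against 15% of all genes, with a median log2 difference of 1.50. A limma unadjusted p under 0.05 was found for 10 of the 12, against 5.64% of all genes in this direction. DESeq2 called 5, against 2.91% of all genes. The summed level of the 12 was 75519 to 143237 normalized reads in LF/LCL and 19404 to 49755 in SF/SCL. It was lowest in SF/SCL replicate 3, where FKBP5 and PGRMC1 were lowest too. The 13 ciliated markers tested were all lower in LF/LCL, 11 without overlap against 15.1% of all genes, with a median of -0.49. The summed levels of this list were 65985 to 83698 against 98328 to 100986. Of the 13, 10 had a limma unadjusted p under 0.05, against 5.86% of all genes in this direction, and DESeq2 called 3. No marker tested in either list was at 0 in any library, while PIFO, a ciliated marker below the level for testing, was at 0 in all but SF/SCL replicate 3. The levels of these lists run with those of the genes above in direction, and their part in the differences was not tested. Both lists were farthest from SF/SCL in LF/LCL replicate 1, as PGRMC1 was, and FKBP5, FKBP4, PAQR8 and PGR were farthest in LF/LCL replicate 2.

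Secretory markers (6 tested, median 0.31, 4 higher and 0 lower without overlap) included PAX8 with a log2 difference of 0.62 ± 0.15 (SE) and an adjusted p of 0.284 by limma and 0.043 by DESeq2. PAX8 had the largest difference of the 6, and 1 of them was negative (-0.07). The summed levels of the 6 overlapped, at 149488 to 175027 in LF/LCL and 147654 to 175222 in SF/SCL. Most of each sum was OVGP1, whose range is given above, so this overlap says little of the other secretory markers. Stromal markers (10 tested, median 0.62) and immune markers (13 tested, median 0.33) had positive differences for 9 and 11 genes, with summed levels of 37545 to 90842 against 23457 to 52237 and of 5497 to 6941 against 3517 to 5683. A limma unadjusted p under 0.05 was found for 3 secretory, 5 immune and 0 stromal markers, all higher in LF/LCL, against 5.64% of all genes. Of the immune markers 6 were higher and 1 lower without overlap. Endothelial markers (8 tested) had a median of 0.19 and mesothelial markers (4 tested) of -0.52. For red blood cells ALAS2 was at 0 in all libraries and the summed level was 90.0 to 528 in LF/LCL and 32.2 to 256 in SF/SCL.

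**Figure D4:**
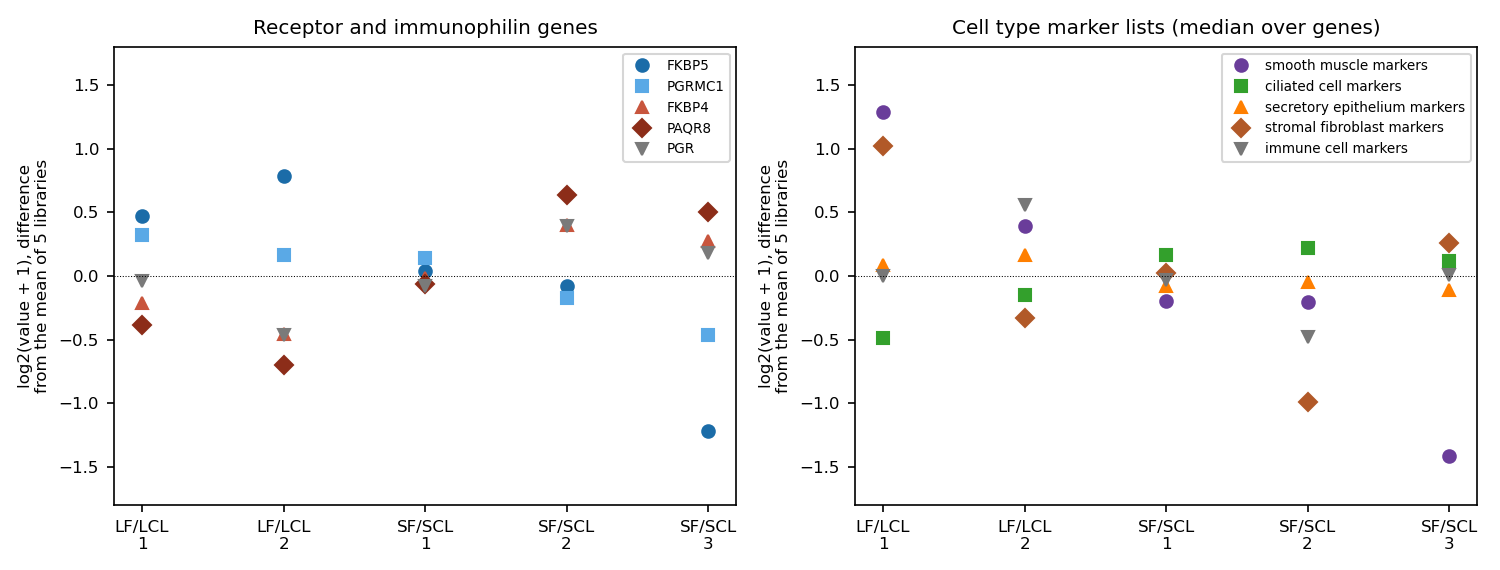
Difference of each library from the mean of the 5 libraries on the log2(value + 1) scale (vertical axis), for 5 of the receptor and immunophilin genes (left) and as the median over genes for 5 marker lists (right). FKBP5 is highest in LF/LCL replicate 2 and lowest in SF/SCL replicate 3, while the smooth muscle markers are highest in LF/LCL replicate 1 and also lowest in SF/SCL replicate 3.

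The rest of the receptor machinery was followed with lists of known genes. For each list the count is of genes with a limma unadjusted p under 0.05, which 5.64% of all genes had in the higher and 5.86% in the lower direction, and no gene of any list had a limma adjusted p under 0.05. DESeq2 called 2 genes of the pathway lists, both named below. The median log2 difference of all genes tested was 0.01.

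HSP90 and its co-chaperones form the complex that holds unliganded receptors ready. All 19 were tested, 0 passed as higher and 2 as lower in LF/LCL, and the median was -0.08. The members with the smallest p were HSPA8, PPID and PTGES3. HSPA8, the constitutive HSP70 that loads the receptor onto HSP90, had 25182 and 26885 normalized reads in LF/LCL, against 32245, 31010 and 36684 in SF/SCL, a log2 difference of -0.35 ± 0.12 (SE). PPID, another immunophilin of the complex, had -0.26 ± 0.10 and PTGES3, the p23 co-chaperone that stabilizes the mature complex, -0.23 ± 0.10. All of these 3 were lower in LF/LCL without overlap, as FKBP4 was, with limma adjusted p of 0.371, 0.43 and 0.464. The chaperones at the core, HSP90AA1 and HSP90AB1, had differences of -0.10 and 0.02, and both were chosen for mention after their values were seen.

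Of the other FK506-binding proteins 11 of 12 were tested, with 1 higher, 1 lower and a median of 0.22. FKBP2, a small immunophilin of the endoplasmic reticulum, was lower in LF/LCL (363.6 and 349 against 519.8, 449 and 589 normalized reads). FKBP9, a larger one of the same compartment, was higher (2621 and 2260 against 1818, 2080 and 1717). FKBP1A, the cytosolic FK506 receptor, came next with a log2 difference of 0.22 ± 0.11 (SE). The differences of FKBP2 and FKBP9 were -0.53 ± 0.16 and 0.38 ± 0.13 (SE). Of the 11 tested, 9 had positive and 2 negative differences, with 3 higher and 1 lower without overlap. The family ran from -0.53 to 0.70, and the FKBP5 estimate of 1.04 ± 0.39 (SE) lay above this range. Without SF/SCL replicate 3 the FKBP5 difference was 0.64, which is inside it. The range of the family without that library is not given here. These values describe the estimates, and the difference between the genes was not tested.

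Among the other PAQR and MAPR genes, 9 of 10 were tested, with 0 higher and 1 lower and a median of 0.11. That 1 was MMD2, a distant PAQR relative at the edge of detection, with 3.52 and 3.87 normalized reads in LF/LCL, against 12.5, 12.4 and 11.8 in SF/SCL. NENF, a secreted MAPR protein, had a log2 difference of 0.22 ± 0.12 (SE), and PAQR4 of -0.64 ± 0.40 (SE). The coactivators and corepressors, which carry the signal of a bound receptor to the transcription machinery, had a median of 0.02 over the 13 tested. Of these, 0 were higher and 1 was lower, NRIP1, a corepressor, with a log2 difference of -0.32 ± 0.12 (SE). CARM1 and NCOA3, both coactivators, followed with -0.25 ± 0.10 and -0.16 ± 0.10 (SE).

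FKBP5 is commonly read together with other genes that respond to glucocorticoid. Of 15 entries tested, 2 passed as higher and 2 as lower in LF/LCL, with 8 positive and 7 negative differences and a median of 0.05. These counts and the median include 1 entry (ENSBTAG00000021811) listed as ANGPTL4 that the paper names ANGPT4, a different gene. Its log2 difference was 0.37 and it did not pass. RGS2, which curbs G protein signals, had 436 and 383 normalized reads in LF/LCL, against 185, 141 and 150.2 in SF/SCL, a log2 difference of 1.37 ± 0.19 (SE) with an adjusted p of 0.178 by limma. GLUL, glutamine synthetase, was also higher without overlap, with 0.56 ± 0.15 (SE). SGK1, a kinase that drives sodium transport, was lower, with 627 and 988 in LF/LCL against 3159, 1163 and 3701 in SF/SCL and a log2 difference of -1.60 ± 0.53 (SE). MAOA, a monoamine oxidase and the other lower gene, had -0.34 ± 0.14 (SE). DESeq2 called 2 of the 15, namely RGS2 and SGK1, in opposite directions. Without LF/LCL replicate 1 the median of the list was -0.37 and without LF/LCL replicate 2 it was 0.35. PER1, KLF9 and TSC22D3, named here after their values were seen because they are classic direct targets along with FKBP5, had log2 differences of -0.25 ± 0.16, -0.28 ± 0.14 and 0.36 ± 0.17 (SE). ZBTB16, a target of both glucocorticoid and progestin likewise named after the fact, had 383 and 304 in LF/LCL, against 349, 361 and 102 in SF/SCL. Its lowest value was in SF/SCL replicate 3, the same library in which FKBP5 was lowest. Of the other genes named from this list, GLUL was also lowest there, whereas SGK1 and PER1 were highest there. RGS2, MAOA, KLF9 and TSC22D3 had their lowest values in other libraries.

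Genes known to respond to progesterone in the female tract or ovary gave 1 higher and 1 lower of 15 tested, with a median of 0.34. Leaving out 1 library moved this median to 0.06 without LF/LCL replicate 1, 0.71 without LF/LCL replicate 2, and 0.08, 0.17 and 0.26 without SF/SCL replicates 1, 2 and 3. FOXO1, a transcription factor of the decidual and luteal response, had 522 and 384 normalized reads in LF/LCL, against 273, 355 and 212 in SF/SCL, a log2 difference of 0.71 ± 0.26 (SE). BMP2, a growth factor downstream of progesterone in the uterus, had 99.7 and 92.9 against 126, 160.1 and 196, a log2 difference of -0.71 ± 0.26 (SE). GATA2, which acts upstream of PGR in the uterus, had a log2 difference of 0.82 ± 0.39 (SE) and overlapped between the groups. HSD17B2, HOXA10, HOXA11 and CALCR were below the level for testing.

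The list for local supply and binding of glucocorticoid had 4 of 5 genes tested, with 0 passing in either direction. NR3C2, the mineralocorticoid receptor, which also binds glucocorticoid, had 198 and 183 normalized reads in LF/LCL against 199.6, 276 and 230 in SF/SCL. It was lower without overlap, as 15.1% of all genes tested were, but with a limma adjusted p of 0.643. LF/LCL replicate 1 and SF/SCL replicate 1 were nearly equal, at 198.2 and 199.6 from 169 and 192 reads. HSD11B1, the enzyme that regenerates active glucocorticoid, had 51.6 and 145 in LF/LCL, against 60.3, 71.5 and 65.5 in SF/SCL, so that the LF/LCL libraries lay on both sides of SF/SCL. H6PD, which supplies the cofactor of HSD11B1, had a log2 difference of -0.14 ± 0.17 (SE). HSD11B2, the inactivating enzyme, was named after its values were seen, with a log2 difference of 0.02 ± 0.47 (SE). SERPINA6, the binding globulin of plasma, had no read in any library.

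**Figure D5:**
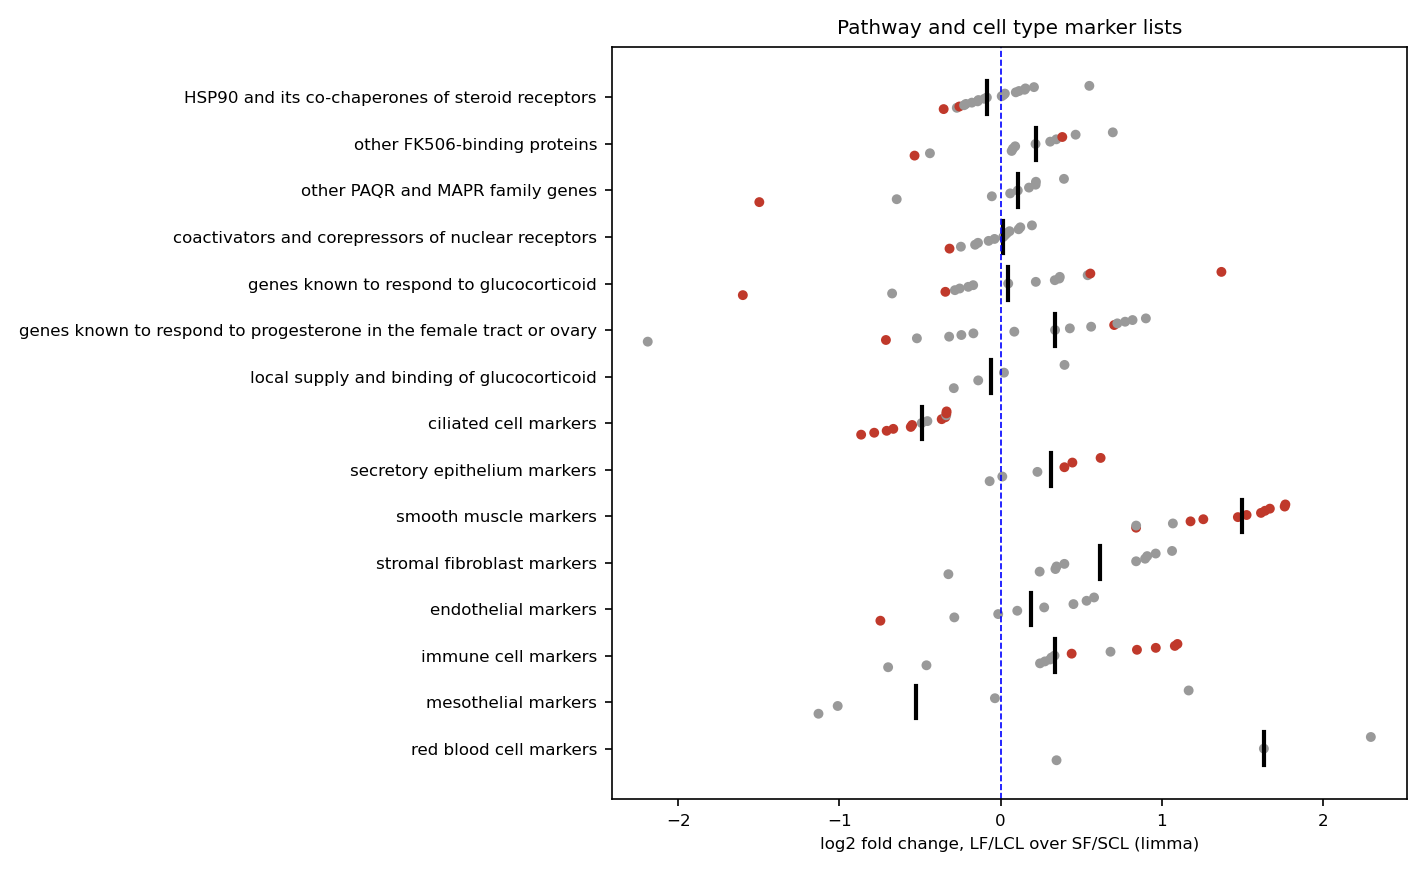
Log2 fold change of LF/LCL over SF/SCL (horizontal axis) of every tested gene in the pathway lists (upper rows) and cell type marker lists (lower rows). Red points have a limma unadjusted p under 0.05 and grey points do not, black bars are list medians, and the dashed line is the median of all genes tested. Medians of the pathway lists lie between -0.08 and 0.34, whereas all smooth muscle markers lie to the right of the dashed line and all ciliated markers to its left.

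Last, the genes whose pattern over the 5 libraries was nearest to that of a receptor gene were sought among 11946 genes with a symbol and a mean of at least 50 normalized reads. Nearness was the root mean square difference of centred log2 values. For PGR, SYCP3 and ANKRD35 were among the nearest, at 0.06 each, against a spread of PGR itself of 0.29. For FKBP5 they were ACAA2 (0.04), CENPH (0.06) and PPAPDC2 (0.10), against a spread of FKBP5 itself of 0.68. ACAA2, a mitochondrial enzyme of fatty acid oxidation, had 4561 and 6062 normalized reads in LF/LCL, against 3359, 3113 and 1491 in SF/SCL. It followed the same library order as FKBP5. The search was extended, after the values were seen, to the other 3 genes without overlap. It gave ACTG1, TMEM160 and CCDC94 for PGRMC1 (0.05, 0.05 and 0.06), C4orf22, P2RX6 and TRPC1 for PAQR8 (0.10, 0.11 and 0.11), and CTF1, PTGER2 and CENPJ for FKBP4 (0.05, 0.06 and 0.06). The spreads of PGRMC1, PAQR8 and FKBP4 themselves were 0.28, 0.51 and 0.31, so the distances cannot be compared directly between these genes. With 5 libraries these matches are a description.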

How the data were processed

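The authors prepared polyA libraries from 1 µg of total RNA, sequenced read pairs, cleaned them with seqyClean, mapped them with TopHat2 2.0.8 and Bowtie2 2.1.0 on a masked UMD assembly of cattle, and counted reads per Ensembl gene with HTSeq. The strand setting was not given in the sources used here, so overlapping and antisense genes are uncertain, as are near-identical copies. The deposited values are a normalized signal, counts divided by a DESeq 1.12.1 size factor per library. The authors left out 1 further LF/LCL ampulla sample because its library was poor and gave few reads, so it was not analysed here. Each nonzero value was a whole multiple of 1 step per library (100% within 0.001), which gave back the reads.

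The main test was limma 3.58.1 (lmFit, eBayes with trend and robust, R 4.3.3) on log2(value + 1) of the 15815 genes with a mean over 5, two-sided, with Benjamini-Hochberg adjustment over all of them at 0.05 and no covariate. A fold change on this scale understates that of low genes. edgeR 4.0.16 and DESeq2 1.42.0 on the recovered reads, other scalings, pseudocounts and filters, and leaving out each library were alternatives. The functions were tested on simulated data. The ratio of PGR to NR3C1 was planned but could not be formed. No batch was given in the labels.

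The genes and lists were chosen with earlier results of these data known. Named are the 8 genes, the 3 of each pathway list with the smallest p, and the 3 nearest patterns, of which 1 is not reported here. Of the list genes, KAT2B, SMARCA4, NFKBIA, CEBPD, CEBPB and AREG were not matched by symbol, and ANGPTL4 matched 2 entries. The paper names 1 of these 2 entries (ENSBTAG00000021811) ANGPT4. Sequences and coordinates are not given because no table of this build was used here.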

Additional observations from a re-analysis of the deposited data

How the results depend on the processing

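The count of 0 of the 8 genes with an adjusted p under 0.05, and of 0 among all genes, was unchanged under 9 of the 10 alternatives of tool, scaling, pseudocount, filter and estimation, and ran from 0 to 0 without each library. DESeq2 called 1 of the 8 (PAQR8) and 460 genes in all, and the cause was not tested. In the fits without 1 LF/LCL library, the remaining one was assumed to vary like the SF/SCL libraries. The counts of 4 genes without overlap and of 3 with an unadjusted p under 0.05 were put to the alternatives after the data were seen. The first ran from 4 to 6 without each library, where the share of all genes was between 41.2% and 57.1%. It cannot fall when a library is left out, so it says nothing of stability. The second was 0 without LF/LCL replicate 2, and 4 at most, without SF/SCL replicate 1. It was 2, with FKBP5 lost, both in limma without trend and robust estimation and in the separate fit without LF/LCL replicate 1.

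Across all 15 alternatives FKBP5 (0.64 to 1.27), PGRMC1 (0.26 to 0.56), FKBP4 (-0.67 to -0.43), PAQR8 (-1.11 to -0.74) and PGR (-0.63 to -0.20) kept their direction, and PAQR5 did so in the 14 that could be fitted. PGRMC2 turned to -0.125 without LF/LCL replicate 1 and reached 0.21 without LF/LCL replicate 2. PAQR7 turned to -0.227 and -0.23 in the edgeR fits with TMM and DESeq size factors, -0.231 with DESeq2, -0.0214 with scaling to total reads, -0.00676 with a pseudocount of 5, and ran from -0.426 to 0.597 without each library. The FKBP5 to FKBP4 log2 ratio ran from 1.17 to 1.94 without each library, PGRMC1 to PGRMC2 from 0.155 to 0.554 and PAQR8 to PAQR7 from -1.42 to -0.517. Of 105 recomputed medians of the 7 pathway lists, 16 moved by more than the pooled SD of the library medians within groups. The medians of the marker lists were not recomputed. The groups are unpaired, since each cow belonged to only 1 of them, so no paired analysis applied. PAQR5 rests on 35 reads in all, and whether depth or the spread between cows limits its estimate was not tested.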
